A study of Mus musculus with 32 samples.

Results

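The genes described here are 34 genes of cholesterol synthesis, uptake, storage and export, together with *Srebf2* and the proteins that control it. They were chosen by name, and all 34 were found among the 24646 genes measured in each tissue. Whole-tissue RNA was compared between male mice lacking *Gpr146* in the whole body (Gpr146 -/-, here KO) and wild-type littermates (Gpr146 +/+, here WT). *Gpr146* encodes an orphan G protein-coupled receptor. All mice were 20 weeks old, had eaten high-fat food during 3 months and went without food overnight before harvest, so no lean or fed group is part of the comparison. The strain of these mice is not given in the sources used here. Liver, epididymal white fat (eWAT), inguinal white fat (iWAT) and brown fat (BAT) were profiled in 4 WT and 4 KO mice each, 32 arrays in all. The deletion is constitutive and present in every tissue, so an effect in one organ cannot be told apart from a response to loss of the receptor elsewhere.

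Cells make cholesterol from acetyl-CoA through mevalonate, isoprenoid units, squalene and lanosterol. The transcription factor SREBP2, the product of *Srebf2*, is held in the endoplasmic reticulum by INSIG proteins when sterols are plentiful. When sterols fall, SCAP escorts it to the Golgi, where it is cleaved, and its released part binds sterol regulatory elements in the promoters of synthesis and uptake genes. Oxysterols, which accumulate when cholesterol is in excess, activate liver X receptors, which raise export genes such as *Abca1* and *Abcg1* as well as *Mylip*, the ubiquitin ligase that removes lipoprotein receptors from the cell surface. Liver is the main organ of cholesterol synthesis and clearance, whereas fat cells mostly store cholesterol in their lipid droplets, and lipid-laden macrophages of obese fat esterify it.

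To show how the regulatory sequences of these genes differ, 200 bases upstream of the annotated start are printed for *Hmgcs1*, which fell in 2 fat depots, *Hsd17b7*, which fell in eWAT, *Insig1*, which rose in liver, and *Aacs*, which rose in eWAT. The sequences come from RefSeq on build GRCm38.p6, run 5′ to 3′ on the strand of the gene, and end at the base before the start. The positions are chr13:119690151-119690350 on the plus strand for *Hmgcs1*, chr1:169969206-169969405 on the minus strand for *Hsd17b7*, chr5:28071212-28071411 on the plus strand for *Insig1* and chr5:125475673-125475872 on the plus strand for *Aacs*. Capitals mark, on either strand, the letters TCACNCCAC (a form of the sterol regulatory element), CCAAT (the box bound by NF-Y) or GGGCGG (the box bound by Sp1), and no marked stretches overlap.
Hmgcs1: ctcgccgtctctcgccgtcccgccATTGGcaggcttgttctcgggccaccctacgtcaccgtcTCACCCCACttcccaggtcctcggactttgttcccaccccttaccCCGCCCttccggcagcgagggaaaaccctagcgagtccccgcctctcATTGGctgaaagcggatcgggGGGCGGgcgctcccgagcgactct
Hsd17b7: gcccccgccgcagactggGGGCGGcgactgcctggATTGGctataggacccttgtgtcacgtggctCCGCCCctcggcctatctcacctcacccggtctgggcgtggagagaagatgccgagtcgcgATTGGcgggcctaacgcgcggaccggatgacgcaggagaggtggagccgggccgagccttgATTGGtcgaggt
Insig1: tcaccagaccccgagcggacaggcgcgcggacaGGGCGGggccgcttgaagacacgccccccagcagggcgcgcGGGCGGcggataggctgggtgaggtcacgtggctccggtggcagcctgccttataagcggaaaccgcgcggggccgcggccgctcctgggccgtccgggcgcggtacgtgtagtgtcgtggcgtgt
Aacs: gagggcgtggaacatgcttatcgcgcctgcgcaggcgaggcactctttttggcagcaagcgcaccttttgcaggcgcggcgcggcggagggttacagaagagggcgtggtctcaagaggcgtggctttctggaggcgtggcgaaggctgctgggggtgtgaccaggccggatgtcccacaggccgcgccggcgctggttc
The *Hmgcs1* stretch held the sterol regulatory element as TCACCCCAC from position -137, with 2 CCAAT boxes and 2 GGGCGG boxes around it. Within the 200 bases shown, *Hsd17b7* held 3 CCAAT and 2 GGGCGG boxes, *Insig1* held 2 GGGCGG boxes, and *Aacs* held none of these letters. In the longer window described next, *Insig1* also held CCAAT, while *Aacs* still held none of the letters.

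Promoter windows of 250 bases before to 50 bases after the start were given for 26 of the 34 genes, and none for *Fdps*, *Fdft1*, *Sqle*, *Npc1*, *Stard4*, *Scarb1*, *Soat2* and *Abcg1*. CCAAT was present in 22 of these 26 genes (84.6%), all but *Aacs*, *Abca1*, *Acat2* and *Scap*, against 41.1% of the 27025 genes with a window and 37.4% of the 32851 windows. GGGCGG was likewise present in 22 of 26 (84.6%), all but *Aacs*, *Ggps1*, *Npc1l1* and *Pmvk*, against 38.2% of genes and 35.7% of windows. TCACNCCAC was found in *Hmgcs1* alone, against 1.44% of genes and 1.24% of windows, which says of the others only that these letters are not in this window. Of the genes that passed the test in eWAT, all 6 that fell and had a window held CCAAT, as did 1 of the 3 that rose, *Insig2*. GGGCGG was in all 6 that fell and in 2 of the 3 that rose. TCACNCCAC was in 1 of the 6 and in 0 of the 3. These counts are descriptions and were given no test.

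*Gpr146* itself was lower in all 4 KO arrays than in all 4 WT arrays of every tissue: the KO and WT ranges of log2 values were 4.26 to 4.63 and 6.17 to 6.32 for liver, 3.63 to 4.63 and 5.32 to 6.05 for eWAT, 3.82 to 5.10 and 5.37 to 6.58 for iWAT, and 3.82 to 4.69 and 5.10 to 5.60 for BAT. This matched the genotype field also for the 4 KO livers, whose titles read WT. Hepatocyte markers averaged 10.94 to 11.03 in liver, adipocyte markers 9.41 to 10.11 in eWAT and 9.73 to 10.15 in iWAT, and brown adipocyte markers 8.73 to 9.38 in BAT. Some arrays stood apart from their group. In BAT, skeletal muscle markers averaged 6.40, 7.31 and 7.51 in WT 2, WT 3 and KO 2 but at most 3.57 in the other 5 arrays. In iWAT, B cell and lymph node markers averaged 8.20, 8.18, 7.92 and 5.83 in WT 1, WT 2, KO 2 and KO 4 but at most 3.99 in the other 4. In eWAT, the macrophage list averaged 8.47 to 8.67 in the WT arrays and 5.89, 8.27, 6.82 and 6.16 in KO 1 to KO 4. The WT 1 arrays of the 3 fat depots stood apart from the other WT arrays in *C130050O18Rik*, the gene with the largest rise in KO liver (3.55 ± 0.13; 3.54 to 3.94 in WT and 6.95 to 7.51 in KO). It read 6.45 in WT 1 of eWAT, 6.98 of iWAT and 5.85 of BAT, against 3.47 to 4.12, 3.74 to 4.29 and 3.06 to 3.43 in the other WT arrays and group means of 7.50, 7.84 and 6.63 in KO, with every KO array above WT 1 of its depot. *Gpr146* was also lowest in WT 1 among the WT arrays of each depot (5.32, 5.37 and 5.10), though above every KO array. WT 1 of liver read 3.77 for *C130050O18Rik*, within the range of the other WT livers, so that the WT 1 arrays of liver and fat differed in this gene although the labels give them 1 mouse number. The source of the difference was not tested, and counts of calls are also given without WT 1.

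The 34 genes leaned to opposite sides in liver and eWAT of mice without *Gpr146*. The mean in liver was higher in KO for 26 of 34 genes and for 17 of the 20 synthesis enzymes, where 53.1% of all genes were higher, whereas in eWAT it was higher for 11 of 34 and 7 of 20, where 56.5% of all genes were. In iWAT it was higher for 11 of 34 (53.2% of all genes) and in BAT for 16 of 34 (50.8%). For liver, eWAT, iWAT and BAT the median log2 difference of the 34 genes was 0.25, -0.24, -0.16 and -0.01, beside 0.01, 0.03, 0.02 and 0.003 over all genes. In eWAT, the mean of the 20 synthesis genes relative to the WT mean was 0.01, 0.13, 0.02 and -0.15 in WT 1 to WT 4. It was -0.08, -0.20, -0.43 and -0.16 in KO 1 to KO 4, so the genotypes overlapped. KO 3 held the lowest eWAT value for 10 of the 20 genes. At an adjusted p under 0.05 (limma on the log2 values, Benjamini-Hochberg adjustment over 24646 genes), the liver gave 1 call among the 34, where 0.661% of all genes passed. The eWAT gave 12 (35.3%), where 15.2% of all genes passed. The iWAT gave 0, where 0% passed, and the BAT gave 1, where 0.0284% passed. Without WT 1 the counts were 1, 9, 0 and 2, where 0.515%, 9.33%, 0.0122% and 0.325% of all genes passed, and the eWAT calls of *Srebf2*, *Insig2* and *Soat1* were lost. The p-values measure the spread between these mice, 4 per genotype.

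**Figure D1:**
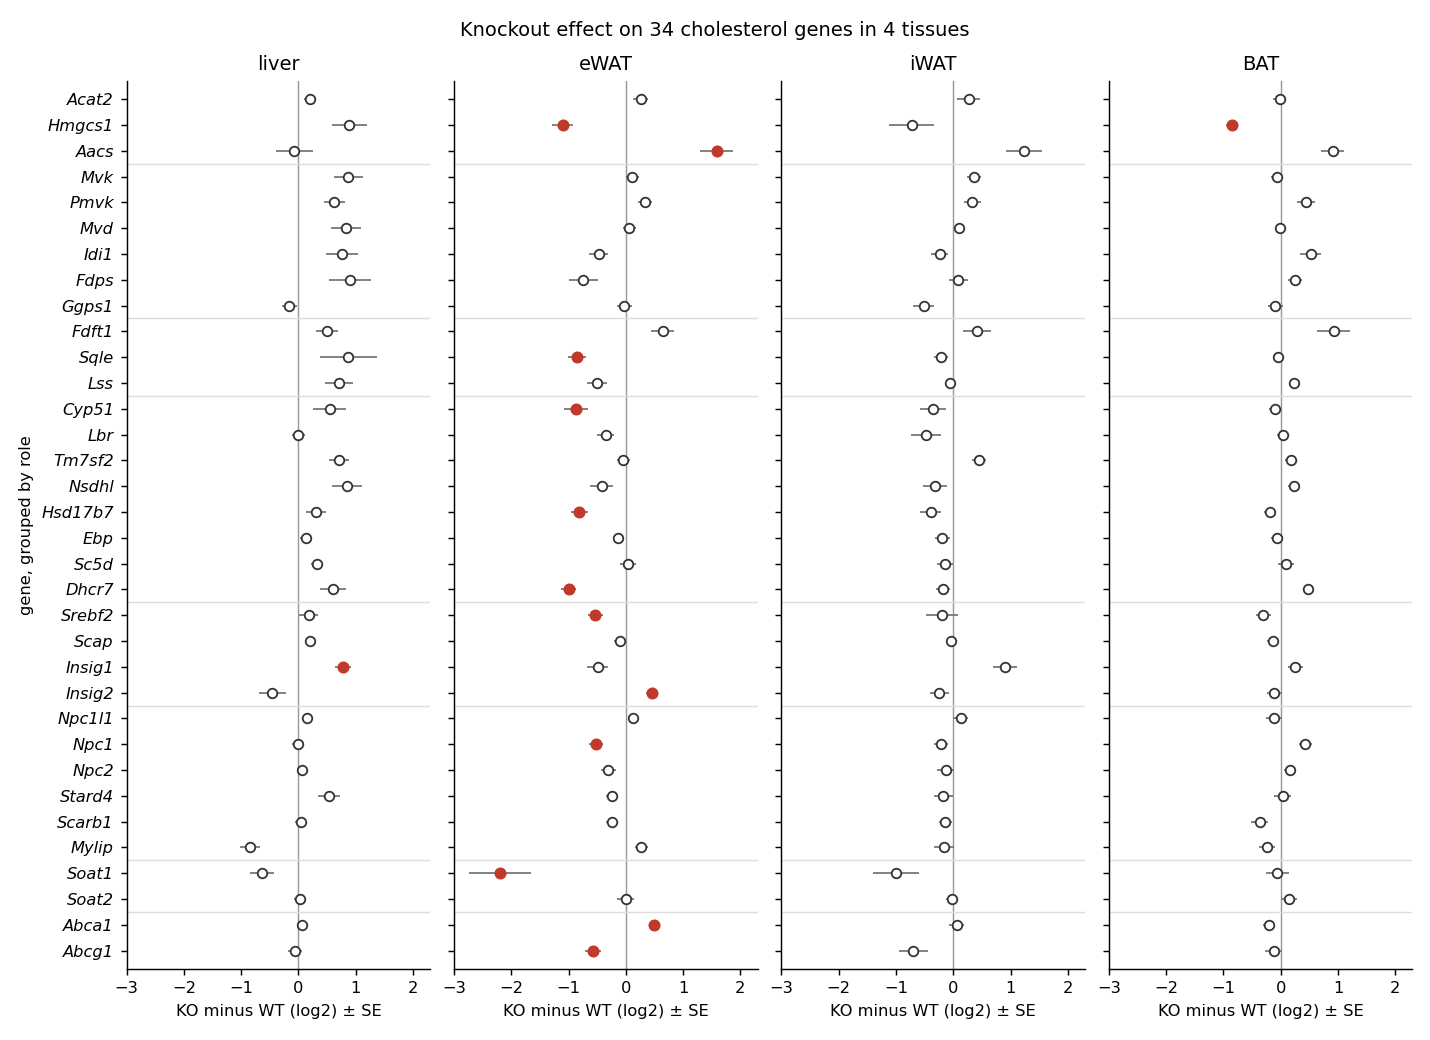
Difference between KO and WT means (log2, with its SE, 4 mice per genotype) for each of the 34 genes in liver, eWAT, iWAT and BAT, with grey lines between role groups and filled red points for genes past the adjusted threshold. Most synthesis genes lie right of 0 in liver (17 of 20) and left of 0 in eWAT (13 of 20), and filled points number 1, 12, 0 and 1 from left to right.

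In liver, *Insig1*, the sterol-regulated anchor of SREBP2 and itself a target of SREBP2, was the single gene of the list that passed the threshold. Its log2 values were 9.12, 8.46, 8.47 and 8.89 in the WT livers and 9.64, 9.47, 9.52 and 9.45 in the KO livers. Every KO liver lay above every WT liver, and the KO livers lay closer together (SD 0.0836) than the WT livers (SD 0.327). *Insig1* rose by 0.79 ± 0.14 (log2, SE, n = 4 per genotype), 1.72-fold, with a limma adjusted p of 0.0345. The call rested on the full set: it held without WT 1 or without KO 2, but without WT 2, WT 3, WT 4, KO 1, KO 3 or KO 4 the adjusted p was 0.0848, 0.102, 0.0620, 0.110, 0.0649 and 0.0875, with the difference between 0.69 and 0.84. The count of 1 became 3 without KO 2, when *Mylip* and *Soat1* passed as well and 1.22% of all genes did.

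*Mylip* and *Tm7sf2* followed *Insig1* by p in liver and missed the adjusted threshold. *Mylip* read 4.88, 5.01, 5.12 and 4.79 in WT and 3.47, 4.47, 4.26 and 4.21 in KO livers, so that no values overlapped. The difference was -0.85 ± 0.18, with an adjusted p of 0.0657, which became 0.0493 without KO 1 and 0.0306 without KO 2. *Tm7sf2*, one of the sterol C14 reductases, read 6.75, 6.08, 6.63 and 6.44 in WT and 7.49, 6.87, 6.91 and 7.44 in KO livers, again with no overlap. The difference was 0.70 ± 0.18, with an adjusted p of 0.109. The two-sided exact permutation test gave p = 0.0286 for each of these 3 genes, the smallest that 4 against 4 arrays allow (70 relabelings). Every gene without overlap gets this value, so it adds nothing to the lack of overlap. In liver 3.62% of all genes were higher and 4.16% lower without overlap.

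Most other synthesis genes had higher means in KO liver, within a wide spread between mice. At an unadjusted p under 0.05, 15 of 34 genes were higher in KO, where 5.79% of all genes were, and 2 were lower, *Mylip* and *Soat1*, where 7.48% were. The 15 comprised *Hmgcs1*, which joins acetyl-CoA to acetoacetyl-CoA, with 0.89 ± 0.30; 5 of the 6 genes from mevalonate to isoprenoids, namely *Mvk* (0.87 ± 0.25), *Pmvk* (0.63 ± 0.19), *Mvd* (0.83 ± 0.26), *Idi1* (0.76 ± 0.28) and *Fdps* (0.91 ± 0.37); and the squalene and lanosterol synthases *Fdft1* (0.50 ± 0.19) and *Lss* (0.71 ± 0.25). They also held *Tm7sf2*, *Nsdhl* (0.84 ± 0.26), *Sc5d* (0.32 ± 0.10) and *Dhcr7* (0.60 ± 0.23) of the steps from lanosterol to cholesterol, *Scap* and *Insig1* of the SREBP2 control, and the sterol carrier *Stard4* (0.53 ± 0.19). Apart from *Insig1*, none of these passed adjustment. In values that did not overlap, only *Tm7sf2* and *Insig1* were higher, 2 of 34 where 3.62% of all genes were, and only *Mylip* was lower, 1 of 34 where 4.16% were.

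The spread between livers of one genotype was itself large for these enzymes. The median within-group SD of the 20 synthesis genes was 0.441 on the log2 scale in liver, beside 0.134 over all genes. It was 0.235 (all genes 0.152) for eWAT, 0.245 (0.196) for iWAT and 0.156 (0.154) for BAT. The mean of the 20 genes relative to the WT mean was 0.07, -0.29, -0.19 and 0.40 in WT 1 to WT 4 and 0.93, 0.22, 0.14 and 0.79 in KO 1 to KO 4. KO 1 held the highest value of all 8 livers for 15 of the 20 genes, WT 2 the lowest for 9 and WT 3 the lowest for 8. WT 4 lay above KO 2 and KO 3, so the groups overlapped. *Sqle*, the squalene epoxidase, shows the pattern: 5.64, 4.60, 4.91 and 6.58 in WT against 7.18, 5.35, 5.51 and 7.19 in KO livers, a difference of 0.87 ± 0.50 (two-sided exact permutation p = 0.229). *Srebf2* differed by 0.18 ± 0.17 (two-sided exact permutation p = 0.457).

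**Figure D2:**
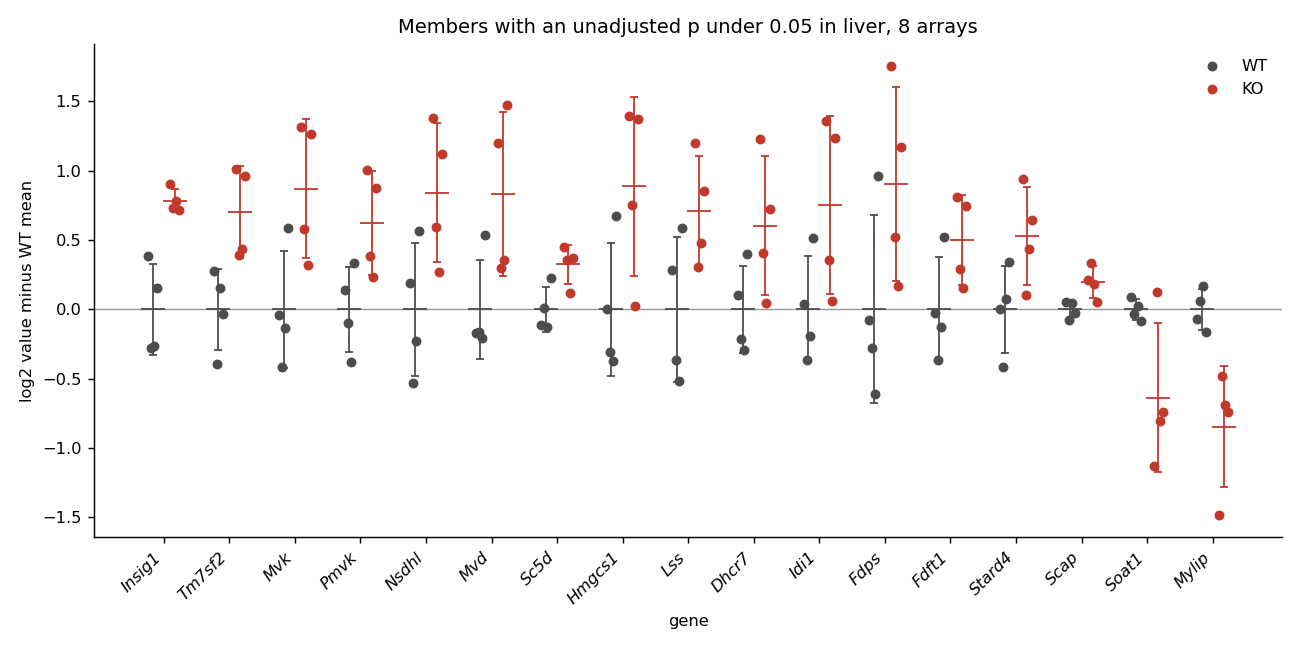
Liver values of the 17 genes with an unadjusted p under 0.05, each array plotted as its log2 value minus the WT mean of that gene (points: 4 WT in grey, 4 KO in red; bars: mean and SD). KO and WT points overlap for most of the synthesis genes and are separate for *Insig1*, *Tm7sf2* and *Mylip*.

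No export or esterification gene passed in liver. *Abca1* differed by 0.06 ± 0.08, *Abcg1* by -0.06 ± 0.12 and *Soat2*, the sterol esterification enzyme of hepatocytes, by 0.03 ± 0.10. *Soat1*, the esterification enzyme abundant in macrophages, read 4.39, 4.27, 4.33 and 4.22 in WT and 3.17, 4.43, 3.50 and 3.56 in KO livers, with KO 2 above every WT liver. Other cell type markers differed in the same arrays. The macrophage list averaged 4.38 to 4.68 in WT and 3.86, 4.57, 3.92 and 4.11 in KO livers. Of its 12 genes, 8 had lower means in KO. At an unadjusted p under 0.05, 6 were lower and 1 was higher, and none passed after adjustment. Endothelial markers averaged 4.98 to 5.16 in WT and 3.87 to 4.73 in KO, and 2 of 4, *Cdh5* and *Kdr*, fell by 1.08 and 0.86. In whole tissue, fewer cells of a type and less RNA per cell cannot be told apart. Of 10 adipocyte markers, 6 had lower means in KO liver, and the median difference of the list was -0.09. Only 2 of the 10 passed adjustment, the lipid droplet genes *Plin4* (-1.55 ± 0.22) and *Cidec* (-2.08 ± 0.38), which fell. The part of these differences in the liver values was not tested.

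In eWAT, 12 of the 34 genes passed the adjusted threshold: 3 rose, where 4.57% of all genes rose, and 9 fell, where 10.7% of all genes fell. After quantile normalization 5 rose and 7 fell (all genes: 1830 rose and 1910 fell, against 1126 and 2632 as deposited). The count of 12 became 6 without WT 2 and 7 without WT 3 or KO 4. Over all genes the count went from 3758 to 1448, 2208 and 2070 in these fits. Among the synthesis enzymes, 5 fell and 1 rose. *Hmgcs1* read 8.01, 8.87, 8.44 and 8.55 in WT and 7.56, 7.39, 7.02 and 7.48 in KO eWAT. It was lower in every KO array and fell 2.15-fold, with a limma difference of -1.10 ± 0.18 and an adjusted p of 0.00971. *Dhcr7*, the reductase of the last step to cholesterol, read 5.33, 5.37, 5.39 and 5.33 in WT and 4.46, 4.73, 4.09 and 4.17 in KO. The WT arrays were nearly equal (SD 0.0274), and every KO array was lower. *Dhcr7* fell by 1.00 ± 0.13, 2.00-fold, with an adjusted p of 0.00763.

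The other falls in synthesis lay between squalene and the later sterols. *Sqle* read 4.36, 4.61, 3.97 and 4.25 in WT and 3.46, 3.70, 3.49 and 3.10 in KO eWAT, a fall of 0.86 ± 0.16 (adjusted p = 0.0114). *Hsd17b7*, a sterol 3-ketoreductase, read 4.12, 4.25, 4.52 and 4.00 in WT and 3.34, 3.75, 3.13 and 3.43 in KO, a fall of 0.81 ± 0.15 (adjusted p = 0.0114). *Cyp51*, the lanosterol demethylase, read 4.37, 5.09, 4.61 and 4.34 in WT and 3.95, 4.14, 3.39 and 3.47 in KO. In all 3 genes the lowest WT array lay above the highest KO array. *Cyp51* fell by 0.87 ± 0.21 (adjusted p = 0.0240), and this call was lost without WT 2 (0.0625), WT 3 (0.0595), KO 3 (0.0541) or KO 4 (0.0669). *Hmgcs1*, *Dhcr7*, *Sqle* and *Hsd17b7* passed in all 8 fits that left out 1 array.

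*Aacs* moved against these enzymes. It encodes acetoacetyl-CoA synthetase, which activates the ketone body acetoacetate in the cytosol for lipid synthesis. Its values were 5.32, 4.75, 4.79 and 4.75 in WT and 6.85, 5.71, 6.26 and 7.14 in KO eWAT, with WT 1 the highest WT array and KO 2 the lowest KO array. *Aacs* rose by 1.58 ± 0.28, 3.00-fold, with an adjusted p of 0.0109 that stayed under 0.05 in all 8 fits that left out 1 array. *Fdft1*, the squalene synthase, also had no overlap, with 7.07, 6.50, 7.08 and 6.55 in WT and 7.72, 7.14, 7.12 and 7.78 in KO, but its difference of 0.64 ± 0.20 had an adjusted p of 0.0612. From acetyl-CoA to squalene, the remaining genes *Acat2*, *Mvk*, *Pmvk*, *Mvd*, *Idi1*, *Fdps* and *Ggps1* gave differences from -0.74 (*Fdps*) to 0.33 (*Pmvk*) and none passed.

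Within the SREBP2 control, *Srebf2* fell and *Insig2* rose in eWAT. *Srebf2* read 6.46, 6.47, 6.58 and 6.21 in WT and 5.68, 6.16, 6.01 and 5.72 in KO, a fall of 0.53 ± 0.13 (adjusted p = 0.0232). *Insig2*, the INSIG that is not a target of SREBP2, read 5.41, 5.41, 5.62 and 5.52 in WT and 6.13, 5.91, 5.69 and 6.04 in KO, a rise of 0.45 ± 0.11 (adjusted p = 0.0215). The groups did not overlap for either gene, but the gap was narrow: 6.21 against 6.16 for *Srebf2* and 5.62 against 5.69 for *Insig2*. The *Srebf2* call was lost without WT 1, WT 2, WT 3, KO 1 or KO 4 (adjusted p 0.0601 to 0.0699) and after quantile normalization (0.0959). The *Insig2* call was lost without WT 1, WT 2, WT 4, KO 1 or KO 4 (0.0550 to 0.0693). *Insig1*, at 8.52, 8.73, 8.30 and 8.05 in WT and 7.99, 8.27, 7.56 and 7.79 in KO eWAT, differed by -0.49 ± 0.18 (adjusted p = 0.0958).

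Transport, storage and export genes divided in eWAT. *Soat1* read 8.55, 8.70, 8.68 and 8.65 in WT and 5.32, 8.17, 6.89 and 5.42 in KO 1 to KO 4. The WT arrays lay close together (SD 0.0664), while KO 2 lay just below them and KO 1 and KO 4 far below. *Soat1* fell 4.58-fold (-2.19 ± 0.54, adjusted p = 0.0262), a call that was lost without WT 1, WT 2, WT 3, WT 4, KO 1 or KO 4 (0.0599 to 0.0731) and that became a fall of 2.77 with an adjusted p of 0.000368 without KO 2. *Abcg1*, a sterol exporter to lipoprotein particles, read 7.84, 8.02, 7.95 and 8.08 in WT and 7.01, 7.73, 7.41 and 7.45 in KO, with KO 2 again nearest to WT. It fell by 0.58 ± 0.14 (adjusted p = 0.0236), a call lost without WT 2, WT 3, WT 4 or KO 4 (0.0534 to 0.0735) and after quantile normalization (0.0796). *Npc1*, which moves cholesterol out of lysosomes, read 4.79, 4.91, 4.90 and 4.82 in WT and 4.16, 4.54, 4.08 and 4.58 in KO. It fell by 0.51 ± 0.12 (adjusted p = 0.0223), a call lost without WT 2, WT 3, WT 4 or KO 1 (0.0586 to 0.0696).

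*Abca1*, the exporter that loads cholesterol onto apolipoprotein A-I, rose in eWAT where *Abcg1* fell. It read 8.06, 7.93, 8.12 and 7.95 in WT and 8.44, 8.38, 8.50 and 8.75 in KO, with every KO array above every WT array. The rise was 0.50 ± 0.10 (adjusted p = 0.0127) and passed in all 8 fits that left out 1 array. The other genes of uptake, transport and storage did not pass: *Npc2* differed by -0.31 ± 0.13, *Stard4* by -0.24 ± 0.11, *Scarb1*, the receptor for high-density lipoprotein, by -0.24 ± 0.11, *Mylip* by 0.27 ± 0.11, *Npc1l1* by 0.13 ± 0.07 and *Soat2* by -0.00379 ± 0.14. *Npc1l1*, *Stard4* and *Soat2* lay below the median gene of the tissue. At an unadjusted p under 0.05, 6 of 34 genes were higher, where 12.4% of all genes were, and 15 were lower, where 17.4% were. Groups did not overlap for 5 genes that were higher, where 8.63% of all genes were, and for 9 that were lower, where 13% were.

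**Figure D3:**
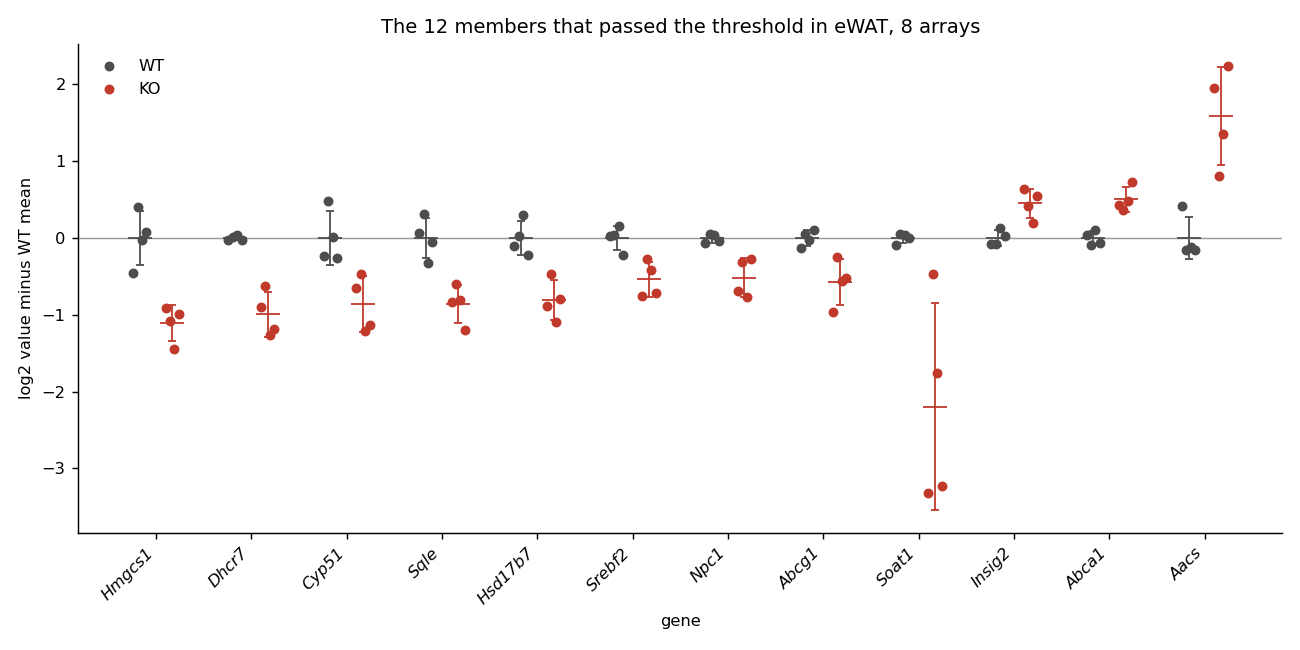
Values in eWAT of the 12 genes past the adjusted threshold, each array plotted as its log2 value minus the WT mean of that gene (points: 4 WT in grey, 4 KO in red; bars: mean and SD). *Soat1* has the widest KO spread (SD 1.35), and *Aacs*, *Abca1* and *Insig2* lie above 0 in all KO arrays.

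Cell type markers differed between genotypes in the same eWAT arrays. Of 12 macrophage genes, 11 fell, among them *Trem2* by 3.12 and *Itgax* by 2.69. Of 10 adipocyte markers, 8 rose, among them *Retn* by 1.32, and *Lep* fell. Mesothelial markers averaged 4.64 to 5.89 in WT and 4.28 to 4.68 in KO, and 2 of 4, *Upk3b* and *Msln*, fell. *Cyp2e1* and *Ahsg* of the hepatocyte list differed by 3.64 and -0.55, and *Ltb* of the B cell list by 0.71. KO 2, whose macrophage mean of 8.27 was close to the WT range of 8.47 to 8.67, was the KO array nearest to the WT mean for 9 of the 12 genes past the threshold: *Aacs*, *Sqle*, *Cyp51*, *Hsd17b7*, *Dhcr7*, *Srebf2*, *Soat1*, *Abca1* and *Abcg1*. The exceptions were *Hmgcs1* (nearest KO 1), *Insig2* (KO 3) and *Npc1* (KO 4). Over all 3758 genes that passed in eWAT, KO 2 was nearest for 75.1%. Without KO 2, *Hmgcs1* differed by -1.11, and 18 of 34 genes passed, where 22% of all genes did. The part of the cell type markers in the eWAT differences was not tested.

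**Figure D4:**
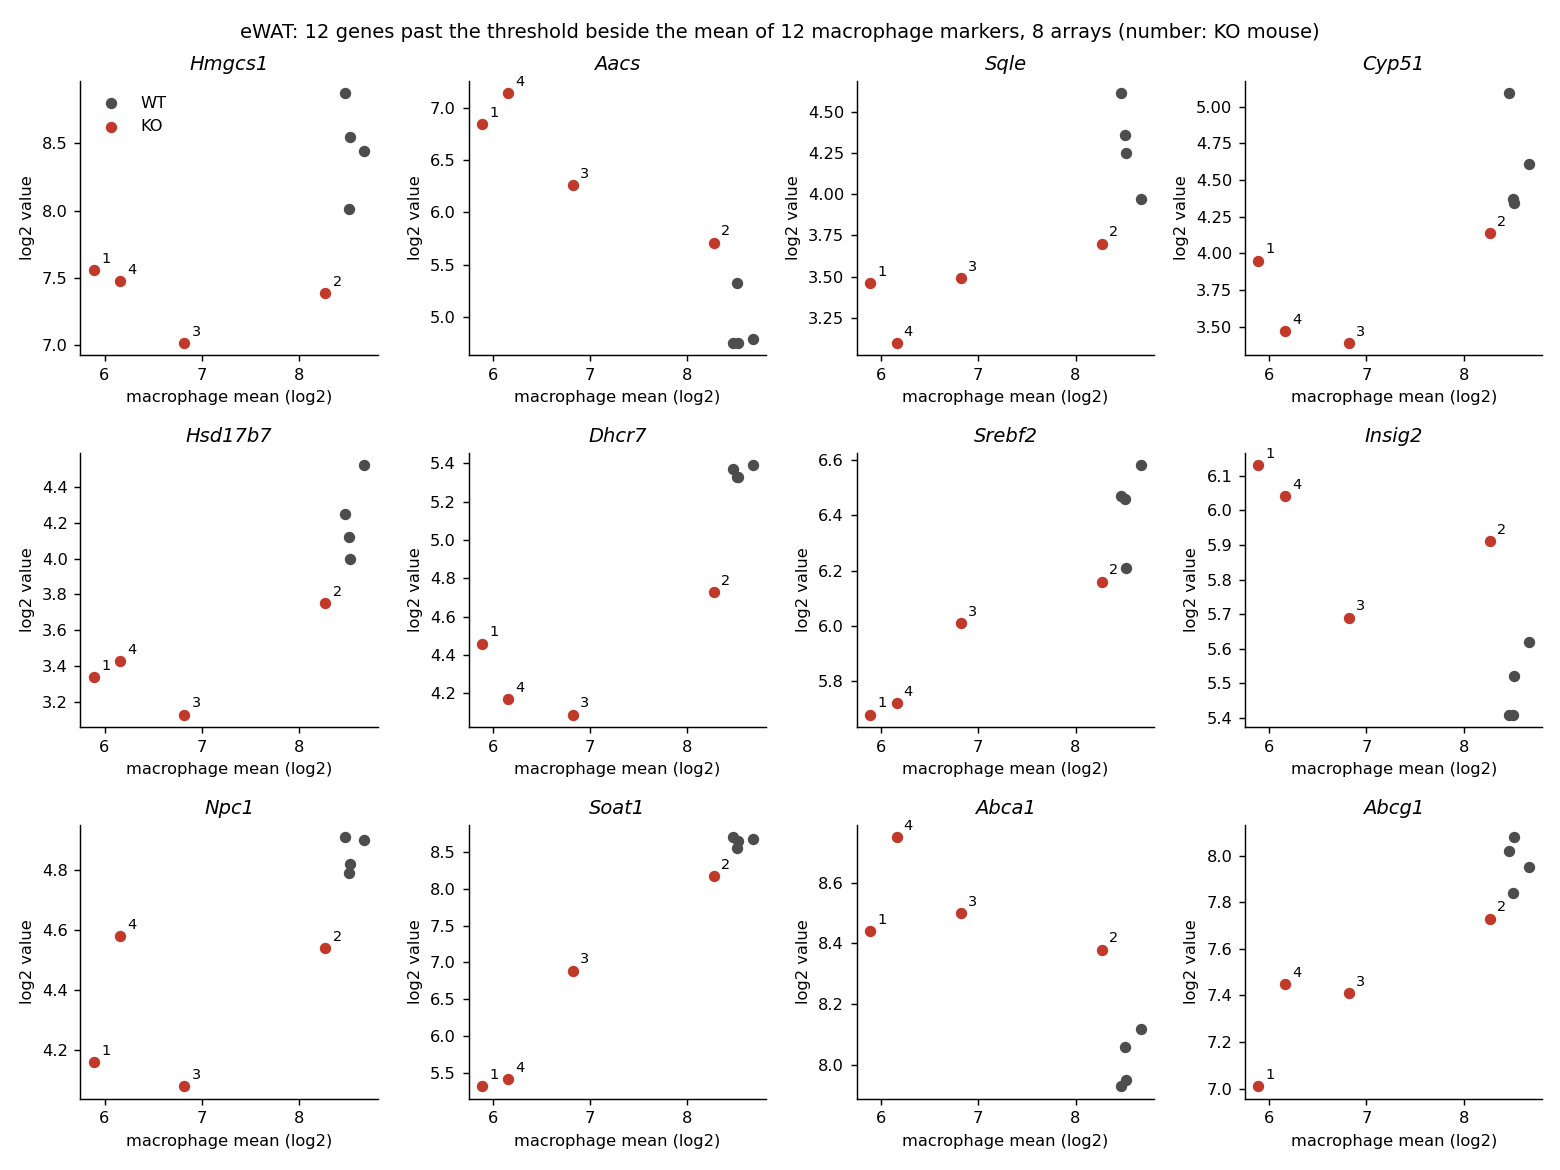
Log2 values of the 12 genes past the threshold in the 8 eWAT arrays (vertical axes, 1 panel per gene) against the mean log2 value of 12 macrophage markers in the same array (horizontal axes), with WT in grey and KO 1 to KO 4 in red with their number. KO 2, at a macrophage mean of 8.27, is the KO array nearest to the WT mean for 9 of the 12 genes, and not for *Hmgcs1*, *Insig2* and *Npc1*. It was also nearest for 75.1% of all 3758 genes that passed in eWAT.

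In iWAT no gene of the list passed the adjusted threshold, nor did any of the 24646 genes by limma, while the methods' t-test without adjustment called 5 of the 34, where 12.8% of all genes passed, and after adjustment 0. The 3 genes with the smallest p were *Insig1*, *Aacs* and *Tm7sf2*, each with an adjusted p of 0.221. *Insig1* read 7.58, 7.92, 7.93 and 8.58 in WT and 8.75, 8.60, 9.22 and 9.06 in KO, with no overlap and a difference of 0.90 ± 0.22. *Aacs* read 5.19, 5.01, 5.90 and 5.44 in WT and 6.93, 5.82, 7.25 and 6.46 in KO, where KO 2 lay below WT 3, with a difference of 1.23 ± 0.31. *Tm7sf2* read 3.74, 4.15, 4.08 and 3.90 in WT and 4.60, 4.39, 4.41 and 4.28 in KO, with no overlap and a difference of 0.45 ± 0.12. *Hmgcs1* spread from 7.26 to 9.15 in WT and from 7.07 to 8.05 in KO.

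At an unadjusted p under 0.05 in iWAT, 4 of 34 genes were higher (*Insig1*, *Aacs*, *Tm7sf2* and *Mvk*), where 7.09% of all genes were, and 3 were lower (*Ggps1*, *Soat1* and *Abcg1*), where 8.34% were. Groups did not overlap for 2 genes that were higher, where 4.29% of all genes were, and for 2 that were lower, *Ggps1* and *Npc1*, where 3.86% were. *Soat1* read 6.87, 7.02, 6.16 and 6.52 in WT and 4.68, 6.79, 5.39 and 5.68 in KO 1 to KO 4, and *Abcg1* read 7.15, 7.27, 6.94 and 7.18 against 5.85, 7.19, 6.18 and 6.53. KO 2 alone overlapped the WT range in both genes, and KO 2 also had the highest macrophage mean of the KO arrays (6.48, against 5.56, 6.00 and 5.82 in the others and 6.39 to 7.21 in WT). Of the 12 macrophage genes in iWAT, 8 were lower at an unadjusted p under 0.05 and none passed adjustment. When the 4 arrays rich in lymph node markers were left out, which keeps 2 per genotype, *Aacs*, *Soat1* and *Abcg1* passed. In that fit 916 of 24646 genes passed. Without KO 2 alone *Aacs* (adjusted p = 0.0428) and *Abcg1* passed, where 0.921% of all genes did. The part of lymph node and macrophage markers in the iWAT values was not tested.

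Brown adipocyte markers in BAT averaged 9.18 to 9.38 in the WT arrays and less in every KO array (lowest 8.73), with 3 of 6 lower at an unadjusted p under 0.05 and none after adjustment. Their part in the BAT values was not tested.

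In BAT, *Hmgcs1* was 1 of only 7 genes in the whole tissue that passed the adjusted threshold. It read 8.82, 9.07, 9.12 and 9.12 in WT and 8.01, 8.35, 8.30 and 8.09 in KO, so that every KO array was lower than every WT array. *Hmgcs1* fell by 0.85 ± 0.11, 1.80-fold, with a limma adjusted p of 0.0483. The direction was the same in all 8 fits that left out 1 array, with differences from -0.92 to -0.79, but the call held only without WT 1. It was lost without WT 2 (0.180), WT 3 (0.101), WT 4 (0.193), KO 1 (0.177), KO 2 (0.0669), KO 3 (0.158) or KO 4 (0.0621), and the difference was -0.84 without the 3 arrays rich in skeletal muscle markers (adjusted p = 0.422).

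*Dhcr7* and *Aacs* followed in BAT and did not pass. *Dhcr7* read 5.11, 5.15, 4.91 and 5.03 in WT and 5.62, 5.37, 5.54 and 5.55 in KO, a difference of 0.47 ± 0.09 with no overlap (adjusted p = 0.106). *Aacs* read 7.12, 6.28, 6.71 and 6.35 in WT and 7.61, 7.33, 7.25 and 7.91 in KO, a difference of 0.91 ± 0.20 with no overlap (adjusted p = 0.127, and 0.0450 without WT 1). The mean of the 20 synthesis genes relative to the WT mean was 0.07, -0.04, 0.05 and -0.07 in WT and 0.21, 0.13, 0.08 and 0.15 in KO 1 to KO 4, while the median of the same genes was 0.06, 0.01, 0.06 and -0.06 in WT and 0.16, 0.08, 0.04 and 0.12 in KO. The mean did not overlap between genotypes, and the median did. *Hmgcs1* and *Dhcr7* thus lay on opposite sides in BAT, although both lay on the same side in liver and in eWAT. At an unadjusted p under 0.05, 8 of 34 genes were higher in BAT (*Aacs*, *Pmvk*, *Idi1*, *Fdft1*, *Lss*, *Nsdhl*, *Dhcr7* and *Npc1*), where 5.25% of all genes were, and 3 were lower (*Hmgcs1*, *Srebf2* and *Scarb1*), where 7.44% were. Groups did not overlap for 3 genes that were higher (*Aacs*, *Dhcr7* and *Npc1*), where 3.31% of all genes were, and for 1 that was lower, where 3.92% were.

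Whether the knockout effect differed between tissues was tested on the difference between 2 tissues of the same mouse, as the labels number the mice, for 6 pairs of tissues. Between liver and eWAT it differed at an unadjusted p under 0.05 for 25 of 34 genes, where 21.3% of all genes did. At the adjusted threshold it differed for 13 of 34, where 8.37% of all genes passed. In 11 of these the effect was more positive in liver, by 1.99 ± 0.30 for *Hmgcs1* (0.89 against -1.10), 1.60 ± 0.25 for *Dhcr7* (0.60 against -0.997), 1.65 ± 0.40 for *Fdps*, 1.26 ± 0.26 for *Nsdhl*, 1.28 ± 0.24 for *Insig1*, 1.23 ± 0.33 for *Idi1*, 1.21 ± 0.33 for *Lss*, 1.12 ± 0.23 for *Hsd17b7* and 0.75 ± 0.16 for *Tm7sf2*, and also for *Soat1* and *Abcg1*. *Aacs* (-1.66 ± 0.27) and *Mylip* (-1.11 ± 0.21) had the more positive effect in eWAT. The limma adjusted p was lowest for *Hmgcs1* (0.00607) and *Dhcr7* (0.00666). The count was 6 without KO 1, 7 without WT 2 or WT 3, 8 without KO 4, 9 without WT 1 and 18 without KO 2. Over all genes it was 955 without KO 1, 927 without WT 2, 1099 without WT 3 and 1048 without KO 4. It was 1138 without WT 1 and 3130 without KO 2, against 2062 in the main fit. With the 16 arrays taken as independent samples 12 members passed (2103 of all genes). Of the 12, 10 were shared: *Tm7sf2*, *Soat1* and *Abcg1* were lost and *Cyp51* and *Abca1* gained.

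Between eWAT and BAT the effect differed for 8 genes, where 6.93% of all genes passed, and at an unadjusted p under 0.05 for 18, where 20.3% did. It was more negative in eWAT for *Dhcr7* (-1.47 ± 0.18), *Soat1* (-2.14 ± 0.39), *Idi1* (-0.999 ± 0.22), *Fdps* (-0.996 ± 0.20), *Npc1* (-0.94 ± 0.15), *Sqle* (-0.82 ± 0.20) and *Lss* (-0.73 ± 0.19), and more positive for *Abca1* (0.71 ± 0.14). In BAT, *Sqle* averaged only 2.89 in WT and 2.85 in KO, close to the median gene of the tissue. *Soat1* averaged 3.69 and 3.63 there, against 8.65 in WT eWAT. Whether a fall could show at these BAT levels was not tested. *Hmgcs1*, which passed in both depots, differed between them by -0.26 ± 0.20 (adjusted p = 0.541). The count was 3 without WT 2, 5 without KO 1 or KO 3, 6 without WT 1 and 13 without KO 2. Over all genes it was 593 without WT 2, 693 without KO 1 and 1089 without KO 3. It was 983 without WT 1 and 2526 without KO 2, against 1707 in the main fit. With the 16 arrays taken as independent samples 6 members passed (1474 of all genes), without *Fdps* and *Soat1*. No gene of the list passed the adjusted threshold between liver and iWAT, liver and BAT, eWAT and iWAT or iWAT and BAT, where 0.00406%, 0.0893%, 0% and 0% of all genes did. At an unadjusted p under 0.05, 14, 15, 10 and 9 of the 34 passed in these pairs, where 11%, 9.41%, 10.8% and 9.58% of all genes did. Tissue pairs that share a tissue share its arrays.

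**Figure D5:**
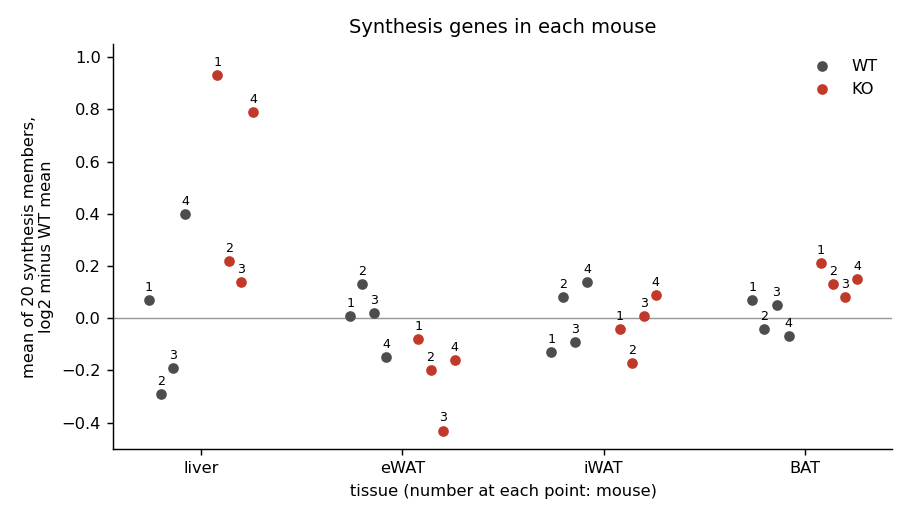
Mean of the 20 synthesis genes in each mouse and tissue, as the log2 value minus the WT mean (vertical axis), with WT in grey, KO in red and the mouse number at each point. The liver points span -0.29 to 0.93, and KO 1 and KO 4 are the highest KO arrays both in liver (0.93 and 0.79) and in eWAT (-0.08 and -0.16).

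Neighbouring genes of the pathway were counted in the same way in eWAT, where 10.7% of all genes fell and 4.57% rose. Of 13 genes for SREBP processing and degradation, 3 fell in eWAT and none rose. They were *Erlin2*, an endoplasmic reticulum protein that takes part in sterol-regulated degradation (-0.71 ± 0.09), *Mbtps2*, the site-2 protease that releases SREBP (-0.76 ± 0.11), and *Faf2*. Of 13 genes of isoprenoid branches, *Coq2*, of coenzyme Q synthesis, rose (0.82 ± 0.19), and *Zmpste24*, the protease that processes prenylated prelamin A (-0.63 ± 0.15), *Nus1* and *Pggt1b* fell. Of 14 other sterol transport genes, *Osbpl1a* and *Gramd1a* rose and 6 fell, among them *Nceh1*, a cholesteryl ester hydrolase of macrophages (-1.29 ± 0.31), and *Osbpl8*, a lipid transfer protein (-1.26 ± 0.25). Of 9 oxysterol receptors and partners, *Rxrb* rose, and *Pltp*, the phospholipid transfer protein (-1.28 ± 0.27), and *Lpcat3*, a phospholipid-remodelling acyltransferase (-0.60 ± 0.11), fell. Of 8 other SREBP2-responsive genes, *Acss2* rose, and *Elovl6*, a fatty acid elongase (-1.05 ± 0.28), *Tmem97*, which is also counted among the transport genes (-0.72 ± 0.17), and *Rdh11* fell. None of these genes passed in liver, iWAT or BAT at the adjusted threshold. The 8 SREBP2-responsive genes had a median difference of 0.29 in liver, with 7 of 8 above 0, where 53.1% of all genes were. In eWAT the median was -0.55, with 5 of 8 below 0, where 56.5% of all genes were above 0. The median was -0.017 in iWAT, with 4 of 8 below 0, and 0.075 in BAT, with 3 of 8 below 0.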

How the data were processed

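RNA of liver, eWAT, iWAT and BAT from 4 WT and 4 KO mice (100 ng per array, per the labels) was hybridised to Affymetrix Mouse Gene 2.1 ST arrays. The deposited values are log2 expression per gene symbol, which the authors normalized by a method not given in the sources used here, in 1 table per tissue. Each tissue was therefore fitted on its own. The table for visceral fat was taken as eWAT, where mesothelial markers averaged 4.28 to 5.89, against 2.77 to 3.21 in iWAT. Between 1 and 2 entries per tissue without a valid gene name were dropped, leaving 24646 genes, of which 840 have a probe number that is not whole, as after averaging of several probe sets. Samples were grouped by the genotype field. KO was compared with WT by limma 3.58.1 in R 4.3.3 (empirical Bayes, Benjamini-Hochberg over all genes, threshold 0.05), and tissues by the same fit on differences within a mouse. Array number limits the precision. The 34 members, 5 neighbouring gene lists and 8 marker lists were chosen with earlier results of these data known. Genes named in full passed the threshold (the 10 with the largest change, and here the other 2 as well), or had the 3 smallest p in a tissue where fewer than 3 passed; 2 genes with the largest change are named per other list and tissue. Values of other genes, such as *Sqle* and *Soat1* in liver, *Fdft1* and *Insig1* in eWAT, *Soat1* and *Abcg1* in iWAT, *Lep*, *C130050O18Rik*, and the members of counts of 5 or fewer, were chosen after they were seen. The procedure was tested on simulated data with independent noise for each gene and array. Such data cannot show how the fit handles differences that many genes of an array share. Alternatives were other scaling, variance prior, array weights, a filter on dim genes, the methods' t-test, a replicate block and leaving out arrays. Leaving out arrays rich in lymph node or muscle markers was chosen after seeing the data. Same-numbered WT and KO arrays were not paired.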

Additional observations from a re-analysis of the deposited data

Results flagged for a closer look

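Among 50 groups of 4 arrays examined, 2 held an array far from the others, and chance gives about 1 in 20 such groups. *Aacs* in eWAT read 5.32 in WT 1 against 4.75 to 4.79 in the other WT arrays, a gap of 0.930 of the range. *Hmgcs1* in BAT read 8.82 in WT 1 against 9.07 to 9.12, a gap of 0.835 of the range. Both arrays lay toward the KO values, and both are WT 1 of a fat depot, which also stood apart in *C130050O18Rik* (6.45 in eWAT and 5.85 in BAT, against 3.47 to 4.12 and 3.06 to 3.43 in the other WT arrays). Without WT 1, *Aacs* in eWAT differed by 1.72 and *Hmgcs1* in BAT by -0.92.

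The knockout effect differed between tissues for 21 combinations of gene and tissue pair. For liver minus eWAT the log2 differences were 1.99 (*Hmgcs1*), -1.66 (*Aacs*), 1.23 (*Idi1*), 1.65 (*Fdps*), 1.21 (*Lss*), 0.75 (*Tm7sf2*), 1.26 (*Nsdhl*), 1.12 (*Hsd17b7*), 1.60 (*Dhcr7*), 1.28 (*Insig1*), -1.11 (*Mylip*), 1.56 (*Soat1*) and 0.51 (*Abcg1*). For eWAT minus BAT they were -0.999 (*Idi1*), -0.996 (*Fdps*), -0.82 (*Sqle*), -0.73 (*Lss*), -1.47 (*Dhcr7*), -0.94 (*Npc1*), -2.14 (*Soat1*) and 0.71 (*Abca1*). What sets the tissues apart was not tested.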

How the results depend on the processing

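No result changed direction under any alternative except the median difference in BAT, which stayed near 0. The methods' t-test called 7, 17, 5 and 6 members in liver, eWAT, iWAT and BAT without adjustment, where 11.8%, 27.6%, 12.8% and 11.4% of all genes passed, and 0 in every tissue after Benjamini-Hochberg adjustment. Quantile normalization moved the median difference from -0.24 to -0.12 in eWAT, from -0.155 to -0.0195 in iWAT and from -0.0146 to 0.0206 in BAT, and leaving out dim genes moved it to -0.31 in eWAT. In BAT 0 members and 0 of all genes passed after quantile normalization, with equal array medians or without arrays rich in muscle markers. Without the arrays rich in skeletal muscle markers the median difference was 0.0221. Without the arrays rich in lymph node markers 3 members passed in iWAT, where 916 of 24646 genes did. Leaving out 1 array at a time gave 0 to 3 members in liver and 6 to 18 in eWAT. It gave 0 to 2 in iWAT and 0 to 2 in BAT. Over all genes these fits called 41 to 300, 1448 to 5429, 0 to 227 and 0 to 80 in the same order. The median differences were 0.18 to 0.34, -0.28 to -0.18, -0.18 to -0.068 and -0.0312 to 0.0286. Between liver and eWAT 6 to 18 members differed, where 918 to 3130 of all genes did. Between eWAT and BAT 3 to 13 differed, where 593 to 2526 did. With the replicate block, 8 members passed in liver, 13 in eWAT, 0 in iWAT and 0 in BAT. Over all genes 189, 3405, 1 and 0 passed, against 163, 3758, 0 and 7 in the main fit. With the block 1 member differed between liver and BAT, where 29 of all genes did, and *Insig2* in eWAT was lost (adjusted p = 0.0523). The numbers share no known origin between genotypes, same-numbered arrays correlated from -0.38 to 0.67, and not every array correlated best with its own number. The causes were not tested. With 4 arrays per genotype, a gene whose spread is that of the liver synthesis enzymes could differ and still miss the threshold.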
